A study of Paeonia suffruticosa with 12 samples.

Results

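The 10 unigenes described here were a fixed list of identifiers, out of the 130956 unigenes of a transcriptome of the tree peony "FengDan", whose best protein matches are enzymes and a transporter of suberin, wax and related acyl-lipid synthesis. The list does not hold all such matches, and 9 others are given further on. A unigene is a transcript group that Trinity assembles from reads, with no reference genome behind it. The list held TRINITY_DN15387_c0_g1 (C86A1), TRINITY_DN22332_c0_g1 (C86B1), TRINITY_DN224_c0_g3 (GPAT1), TRINITY_DN9447_c0_g1 (GPAT6), TRINITY_DN676_c0_g1 and TRINITY_DN676_c0_g2 (both HHT1), TRINITY_DN1082_c0_g3 (FACR3), TRINITY_DN10080_c0_g1 (KCS1), TRINITY_DN19942_c0_g1 (AB6G) and TRINITY_DN10366_c0_g1 (FATB). The symbols are protein matches from other species, given by the study's tables of differentially expressed genes (DEGs), so the list was chosen by measured differences, and each unigene had been called a DEG on these same libraries. All 10 stood in the tables for AC vs. PVP and for PVP vs. AC and PVP, 5 of them also in that for AC vs. CK, and none in that for AC vs. AC and PVP. The values, p-values and calls of these 4 comparisons are therefore a description of the list and no test of it. All 10 passed the filter on low counts, together with 58247 unigenes in all.

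RNA was measured in 12 libraries from seedlings grown out of excised seed embryos, with 3 libraries in each of 4 groups. The AC group had 0.9 g/L activated carbon (an adsorbent) in the medium, and the AC and PVP group had 0.9 g/L activated carbon with 2.5 g/L polyvinyl pyrrolidone (which takes up phenolic compounds). The PVP group had 2 g/L polyvinyl pyrrolidone alone, and the CK group had neither agent. Every library pooled 10 embryos sampled 30 days after rooting by the labels, which name roots, stems and leaves as a mixture for all 4 groups, so the organ from which a transcript came cannot be told. The study's text names leaves and roots instead, and describes seedlings with AC as rooted and those of CK and PVP as without roots, so the labels' mixture cannot hold for all groups. Which organs the CK and PVP libraries held cannot be told here, and fewer cells of a type and less RNA per cell cannot be told apart. The comparisons addressed what browning-preventing agents change in seedlings that do or do not form roots.

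Suberin is a polyester of fatty acids, glycerol and phenolics that seals the walls of root endodermis, periderm and wounded tissue, while waxes and cutin seal the surface of shoots. Its aliphatic part is built in steps. Fatty acids leave the plastid, are elongated, are oxidised at their end by cytochromes P450, are joined to glycerol and to ferulate, or are reduced to alcohols, and are then carried out of the cell by ABC transporters. Roles named below were worked out in Arabidopsis and are given as background, not as measured functions in peony.

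Total estimated counts ran from 11071691 to 25069044 per library, with a median of 19829900 in AC, 18068042 in AC and PVP, 24151282 in PVP and 21323137 in CK. Levels below are CPM, counts scaled to the library total and by TMM factors (which even out differences in RNA composition), and since unigene lengths were not at hand, levels are compared between groups and not between unigenes. Transcripts of seed reserves (14 unigenes of storage and oil body proteins) set 1 CK library apart from the others of its group. They summed to 45987 CPM in CK replicate 2, against 149 CPM in CK replicate 1 and 55.0 CPM in CK replicate 3. The libraries with AC held 908 to 27254 CPM and those of PVP 41.9 to 266 CPM. Without CK replicate 2, seed reserve level by this sum and carbon therefore cannot be told apart. Sums of marker unigenes, here and below, are CPM of the library total without TMM factors. For comparisons with CK, the counts called and the median and range of the 10 fold changes are given also without CK replicate 2.

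The group means of all 10 unigenes had the same order, lowest in AC, then AC and PVP, then CK, and highest in PVP. This order was partly set by the choice of the unigenes, which all stood in the tables for AC vs. PVP and for PVP vs. AC and PVP. It is plain in the plot of levels by library.

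**Figure D1:**
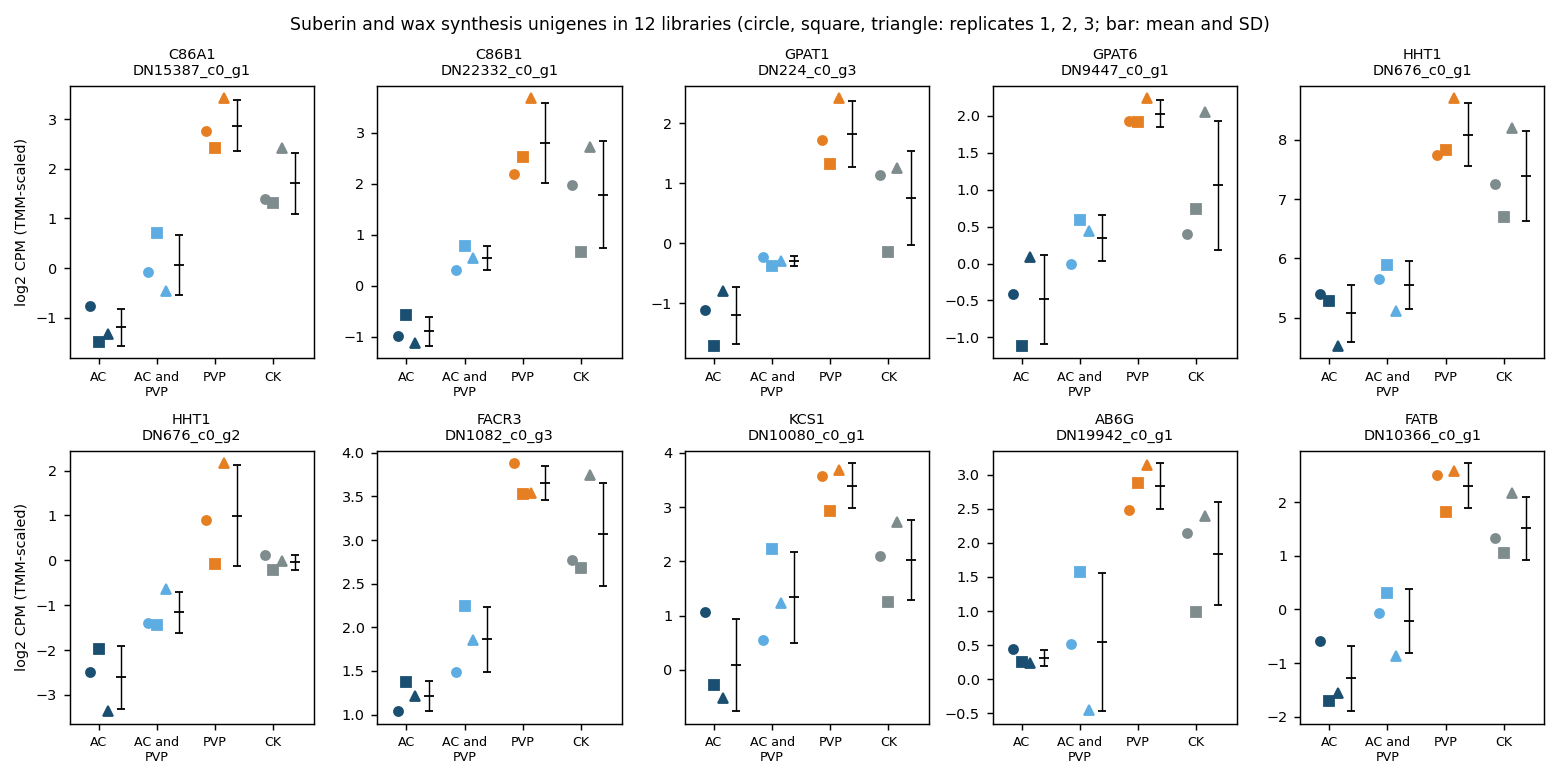
The log2 CPM (TMM-scaled, with a prior count of 2) of each of the 10 unigenes in AC, AC and PVP, PVP and CK, with 1 point per library, the shape giving the replicate and the bar the mean and SD of 3 libraries. The 3 AC libraries lie below all PVP and CK libraries in all 10 panels, and the vertical scale differs between panels.

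Both cytochromes P450 had their lowest levels in the libraries with AC. C86A1, the omega-hydroxylase that oxidises the end of long fatty acids for root suberin, had 0.489, 0.260 and 0.301 CPM in AC, 0.855, 1.54 and 0.631 CPM in AC and PVP, 6.69, 5.26 and 10.6 CPM in PVP, and 2.53, 2.38 and 5.24 CPM in CK. Each library with AC lay below each library without it, and the AC libraries held 22 counts of C86A1 in all, against 273 in CK. For C86A1 the log2 fold change was -3.22 in AC vs. CK (SE 0.47), which is 9.34-fold lower in AC, and -4.37 in AC vs. PVP (SE 0.49). C86B1, which acts on the very long chains, had 0.407, 0.573 and 0.361 CPM in AC, 1.14, 1.61 and 1.35 CPM in AC and PVP, 4.45, 5.68 and 12.7 CPM in PVP, and 3.84, 1.48 and 6.49 CPM in CK. The lowest of these CK values, that of replicate 2, fell within the range of AC and PVP, so the split by AC was not complete for C86B1. Its log2 fold change was -3.12 in AC vs. CK (SE 0.54) and -4.06 in AC vs. PVP (SE 0.55).

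The acyltransferases join fatty acids to glycerol. GPAT1 is known in Arabidopsis from pollen development and GPAT6 from flower cutin, so neither is a suberin enzyme by that evidence. GPAT1 had 0.367, 0.208 and 0.482 CPM in AC, 0.760, 0.671 and 0.721 CPM in AC and PVP, 3.22, 2.39 and 5.25 CPM in PVP, and 2.11, 0.808 and 2.29 CPM in CK. Its libraries with AC again lay below all without, but by a narrow margin, since AC and PVP replicate 1 had 0.760 CPM and CK replicate 2 had 0.808 CPM. GPAT6 had 0.652, 0.364 and 0.963 CPM in AC, 0.902, 1.41 and 1.26 CPM in AC and PVP, 3.73, 3.66 and 4.63 CPM in PVP, and 1.22, 1.57 and 4.04 CPM in CK. The PVP libraries of GPAT6 lay above all 6 libraries with AC, whereas CK and AC and PVP overlapped. In AC vs. PVP the log2 fold change was -3.34 (SE 0.49) for GPAT1 and -2.60 (SE 0.48) for GPAT6, and in AC vs. CK it was -2.30 (SE 0.49) and -1.79 (SE 0.47) in the same order.

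HHT1, the feruloyl transferase that hangs ferulate on omega-hydroxylated fatty acids, was represented by a pair of unigenes of the same Trinity component, which may be copies or parts of 1 gene and may divide its reads. TRINITY_DN676_c0_g1 had 42.2, 38.9 and 22.9 CPM in AC, 50.4, 59.1 and 34.4 CPM in AC and PVP, 214, 226 and 416 CPM in PVP, and 153, 104 and 293 CPM in CK. It held 2165 counts in AC against 14999 in CK, the deepest coverage of the list, and every library with AC was below every library without. The log2 fold change of this HHT1 unigene was -2.40 in AC vs. CK (SE 0.42), or 5.28-fold lower in AC, -3.04 in AC vs. PVP (SE 0.44) and -2.57 in AC and PVP vs. PVP (SE 0.43). TRINITY_DN676_c0_g2 was scarce, with 0.0815, 0.156 and 0 CPM in AC, 0.285, 0.268 and 0.541 CPM in AC and PVP, 1.78, 0.850 and 4.38 CPM in PVP, and 0.982, 0.763 and 0.894 CPM in CK. It was not detected in AC replicate 3, where a count of 0 allows up to 0.181 CPM by counting error alone, and it had 5 counts over the AC libraries, against 73 over CK. Its groups were split by AC like those of its partner, and its fold changes carry the widest errors of the list (log2 fold change -3.33 in AC vs. CK, SE 0.79).

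FATB, KCS1 and FACR3 act before and beside the oxidation steps. FATB is the plastid thioesterase that frees palmitate for export from the plastid, and it had 0.570, 0.208 and 0.241 CPM in AC, 0.855, 1.14 and 0.451 CPM in AC and PVP, 5.63, 3.45 and 5.88 CPM in PVP, and 2.41, 1.97 and 4.43 CPM in CK. All 6 FATB values with AC were below the 6 without, at a log2 fold change in AC vs. CK of -3.04 (SE 0.49), which is 8.23-fold lower in AC, and -3.80 in AC vs. PVP (SE 0.49). KCS1, a condensing enzyme of fatty acid elongation, had 2.00, 0.729 and 0.602 CPM in AC, 1.38, 4.56 and 2.25 CPM in AC and PVP, 11.8, 7.49 and 12.8 CPM in PVP, and 4.20, 2.29 and 6.49 CPM in CK. The 4.56 CPM of KCS1 in AC and PVP replicate 2 exceeded the values of CK replicates 1 and 2, so these groups overlapped. FACR3 reduces acyl chains to the primary alcohols of wax. It had 1.96, 2.499 and 2.23 CPM in AC, 2.71, 4.63 and 3.52 CPM in AC and PVP, 14.6, 11.5 and 11.6 CPM in PVP, and 6.73, 6.33 and 13.3 CPM in CK, with no overlap between libraries with and without AC. Its log2 fold change was -1.98 in AC vs. CK (SE 0.34) and -2.49 in AC vs. PVP (SE 0.34), the lowest standard errors of the list.

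AB6G is an ABC transporter of the G family that takes part in suberin deposition in root and seed coat. It had 1.26, 1.09 and 1.08 CPM in AC, 1.33, 2.89 and 0.631 CPM in AC and PVP, 5.50, 7.28 and 8.75 CPM in PVP, and 4.35, 1.88 and 5.17 CPM in CK. The AC libraries of AB6G differed little among themselves, while those with AC and PVP spread on both sides of them. Its log2 fold change was -1.72 in AC vs. CK (SE 0.46) and -2.63 in AC vs. PVP (SE 0.47).

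Membership in the study's tables chose the unigenes, so the calls in the next 3 comparisons restate that choice and nothing is read from their counts or from the shares printed beside them. In AC vs. CK, 5 of the 10 unigenes (C86A1, C86B1, HHT1 TRINITY_DN676_c0_g1, FACR3 and FATB) were called lower in AC, a call being an adjusted p under 0.05 with a change of more than 1 log2 unit (edgeR quasi-likelihood, Benjamini-Hochberg over all unigenes tested), where 0.142% of all tested unigenes were called lower. The median log2 fold change was -2.35 over the 10 unigenes and -0.23 over all unigenes tested. Without CK replicate 2 the 10 ran from -3.51 to -1.99, with a median of -2.66. All 10 had their 3 AC libraries below their 3 CK libraries, as did 7.26% of all tested unigenes. The count called moved with the libraries. It was 7 without CK replicate 2, the CK library rich in seed reserve transcripts. It was 2, 0 and 0 without AC replicates 1, 2 and 3, and 1 and 0 without CK replicates 1 and 3. In AC vs. PVP all 10 were called lower in AC (background 0.201% of all tested unigenes), with log2 fold changes of -4.71 to -2.49 and a median of -3.29 (all unigenes -0.03), and all 10 had AC libraries below all PVP libraries (6.38% of all). Leaving out AC replicate 1, AC replicate 2 or PVP replicate 3 left 6 called.

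In AC and PVP vs. PVP, the comparison in which carbon was added and the polymer was given at 2.5 g/L instead of 2 g/L, the log2 fold changes ran from -2.88 to -1.76 with a median of -2.39, against 0.00 over all unigenes. C86A1 (-2.88, SE 0.44) and HHT1 TRINITY_DN676_c0_g1 (-2.57, SE 0.43) were called, both lower in AC and PVP, where 0.0412% of all tested unigenes were. Again all 10 had no overlap (6.08% of all tested unigenes lay below in this way). Without AC and PVP replicate 2 the call held for 5 unigenes, without CK replicate 2 for 6, without CK replicate 3 for 4, without AC replicate 1 for 1, and without AC replicate 2 or 3, AC and PVP replicate 1 or 3, or any PVP replicate for 0.

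In AC vs. AC and PVP, where the polymer is the difference, all 10 log2 fold changes were below 0, from -2.01 for HHT1 TRINITY_DN676_c0_g2 to -0.47 for HHT1 TRINITY_DN676_c0_g1, with a median of -1.13 against -0.02 over all unigenes. None was called (edgeR, and none by DESeq2 on the same groups or on all libraries), 5 had an unadjusted p under 0.05 (6.29% of all tested unigenes, in either direction), and 0.00343% of all tested unigenes were called lower. Ranges did not overlap for C86A1, C86B1, GPAT1, HHT1 TRINITY_DN676_c0_g2 and FACR3, a pattern that 3.76% of all tested unigenes showed. The ranges of the other 5 overlapped, and among these KCS1 (-1.26, SE 0.52) and FATB (-1.23, SE 0.51) had an unadjusted p under 0.05, while GPAT1 and FACR3 did not. AB6G turned to a log2 fold change of 0.18 without AC and PVP replicate 2, the library that held its highest value in that group.

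**Figure D2:**
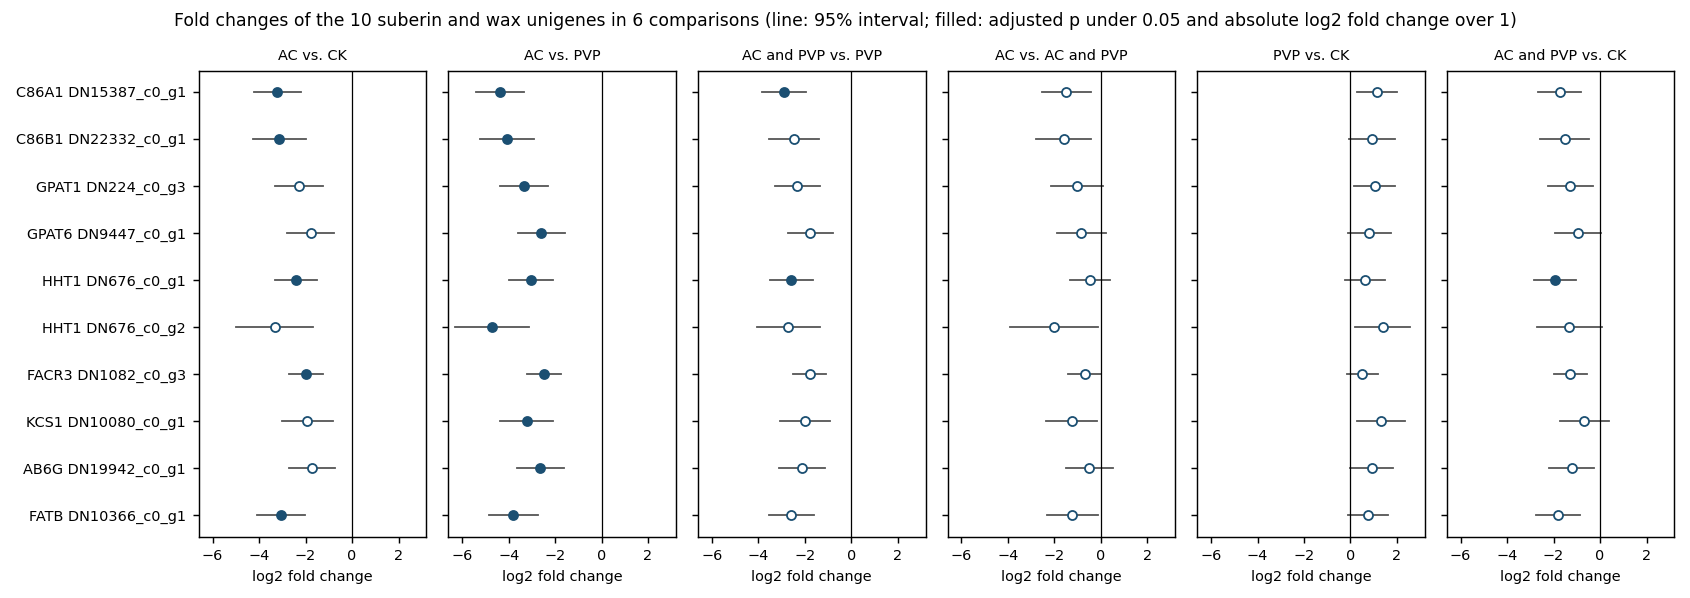
Log2 fold change of each of the 10 unigenes in 6 comparisons, first-named group over the second, with the 95% interval as a line and a filled point for a call (adjusted p under 0.05, edgeR, and more than 1 log2 unit). All points lie left of 0 in 5 comparisons and right of 0 in PVP vs. CK, where every point is open.

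PVP vs. CK and AC and PVP vs. CK were not among the comparisons whose tables gave the list, so their tests are given, with the limit that they share libraries with those that did. High levels in PVP chose all 10 unigenes, which pushes PVP vs. CK above 0, so its test is not independent of the choice. In PVP vs. CK, all 10 log2 fold changes were above 0, from 0.51 for FACR3 to 1.38 for HHT1 TRINITY_DN676_c0_g2 (median 0.93, all unigenes -0.16), and none was called, with adjusted p between 0.234 and 0.601 (edgeR). DESeq2 called 0 as well, on the 2 groups and on all libraries. Without CK replicate 2, the 10 ran from 0.32 to 1.29, the median was 0.60 and none was called. At an unadjusted p under 0.05, 4 of the 10 passed (C86A1, GPAT1, HHT1 TRINITY_DN676_c0_g2 and KCS1), where 11.2% of all tested unigenes did in either direction, and 0.529% of all tested unigenes were called higher. C86A1, GPAT1, KCS1 and AB6G had all PVP libraries above all CK libraries, as 5.99% of all tested unigenes had, and the other 6 overlapped. The 95% interval of C86A1 ran from 0.30 to 2.00 and that of FACR3 from -0.17 to 1.19, so a difference of the size of 1 log2 unit lay inside both. With library sizes in place of TMM factors, HHT1 TRINITY_DN676_c0_g1 was at -0.05 and FACR3 at -0.10, while the median of all unigenes moved to -0.76.

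In AC and PVP vs. CK, all 10 log2 fold changes were below 0, from -1.93 to -0.67 (median -1.30, all unigenes -0.12). HHT1 TRINITY_DN676_c0_g1 was the 1 unigene called, 3.82-fold lower than in CK (log2 -1.93, SE 0.42, adjusted p = 0.0440, edgeR), where 0.371% of all tested unigenes were called lower. FATB (-1.82, SE 0.45, adjusted p = 0.0757), C86A1 (-1.73, SE 0.44, adjusted p = 0.0774) and FACR3 (-1.28, SE 0.33, adjusted p = 0.0862) came next and missed the threshold. Low levels in AC and PVP against PVP chose all 10 unigenes. High levels in CK against AC also chose HHT1 TRINITY_DN676_c0_g1, FATB, C86A1 and FACR3, among others. Both push this comparison below 0, so its p-values are a description and no independent test. By unadjusted p under 0.05, 7 of 10 passed, against 12.8% of all tested unigenes in either direction. C86A1, GPAT1, both HHT1, FACR3 and FATB had no overlap (9.35% of all tested unigenes lay below CK in this way), and the other 4 overlapped. Over 21 other settings the adjusted p of HHT1 TRINITY_DN676_c0_g1 ran from 5.9e-05 to 0.208 and the call held in 10. Without CK replicate 2, 4 unigenes were called (C86B1, HHT1 TRINITY_DN676_c0_g1, FACR3 and FATB), and the 10 ran from -2.22 to -0.97 with a median of -1.57. Without either of the other CK libraries, any AC and PVP library, AC replicate 1 or 2, or PVP replicate 1 or 2, 0 were.

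The carbon split can be put on 1 scale by setting the 6 libraries with AC against the 6 without. In 6 of the 10 unigenes (C86A1, GPAT1, both HHT1, FACR3 and FATB) each value with AC was below each value without, as in 0.543% of all tested unigenes, a share to be read with the choice of the list in mind. The ratio of the lowest value without AC to the highest with AC was 1.76 for HHT1 TRINITY_DN676_c0_g1, 1.73 for FATB, 1.54 for C86A1 and 1.06 for GPAT1. For KCS1 it was 0.501, since AC and PVP replicate 2 stood high and CK replicate 2 low. Without AC and PVP replicate 2 the count was 9, and without CK replicate 2 it was 8.

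The same libraries give the difference made by PVP at both carbon levels, a contrast added after the results were seen and one in which the polymer was at 2.5 g/L with AC and at 2 g/L without. High levels in PVP and low levels in AC chose the unigenes, and both make this contrast positive. Its sign, size, p-values and calls are therefore a description and no test of the list. The mean of AC and PVP minus AC and of PVP minus CK was above 0 for all 10 unigenes, from 0.55 for HHT1 TRINITY_DN676_c0_g1 to 1.70 for HHT1 TRINITY_DN676_c0_g2, with a median of 1.01 (0.88 without CK replicate 2). None was called (edgeR, lowest adjusted p = 0.0822 for C86A1), 9 had an unadjusted p under 0.05 (10.5% of all tested unigenes in either direction), and 0.254% of all tested unigenes were called higher. Over 18 other settings C86A1 was called in 3 (adjusted p 0.011 to 0.231, edgeR), C86B1 in 2 and KCS1 in 2. C86A1 had 1.32 (SE 0.32), KCS1 1.28 (SE 0.36) and C86B1 1.27 (SE 0.36). The difference between the PVP effects with and without AC was above 0 for 6 of 10, from -0.41 to 0.65, with a lowest adjusted p of 0.841 (edgeR, where 0.00172% of all tested unigenes were called above 0) and an interval of -0.96 to 1.65 for C86A1, so unequal effects of that size were not detectable here.

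The 10 unigenes also went together from library to library. Pearson's r between the log2 CPM of a unigene and the mean of the other 9 ran over the 12 libraries from 0.90 (HHT1 TRINITY_DN676_c0_g2) to 0.99 (C86A1). The points share the 4 groups, the library totals and the scaling factors, and the list was chosen for group differences. Centred within groups, r ran from 0.26 (HHT1 TRINITY_DN676_c0_g2) to 0.90 (C86A1), with 0.87 for HHT1 TRINITY_DN676_c0_g1. In CK all 10 were above their group mean in replicate 3 and none was in replicate 2. The ratio of CK replicate 3 to CK replicate 2 ran from 1.17 for HHT1 TRINITY_DN676_c0_g2 to 4.38 for C86B1 with a median of 2.66, against a median of 0.930 over 31523 unigenes counted in both libraries. In PVP, 9 of 10 were above their mean in replicate 3, and FACR3 was the exception, with its highest value in replicate 1. The ratio of PVP replicate 3 to PVP replicate 2 ran from 1.01 for FACR3 to 5.15 for HHT1 TRINITY_DN676_c0_g2. Within AC and PVP, 8 of 10 were above their mean in replicate 2.

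Markers of other tissues were read beside these levels. The seed reserve unigenes had a sum (CPM of the library total) of 11440, 27254 and 2318 CPM in AC, 908, 18327 and 6433 CPM in AC and PVP, 42.7, 41.9 and 266 CPM in PVP, and 149, 45987 and 55.0 CPM in CK. TRINITY_DN913_c0_g1, a storage protein match abundant in all libraries, was left out of this sum after its values were seen. With it, the 15 unigenes summed to 14227, 28238 and 3240 CPM in AC, 2531, 20130 and 7199 CPM in AC and PVP, 5822, 3875 and 1961 CPM in PVP, and 3802, 47437 and 3521 CPM in CK, so that AC replicate 3 and AC and PVP replicate 1 lay among the libraries without AC. By the sum of 14, seed reserve transcripts were high in all libraries with AC and in CK replicate 2, the CK library in which all 10 unigenes were below their group mean, and low in the other 5, and their part in the result was not tested. The mean of the 10 suberin and wax unigenes, as log2 CPM centred on each unigene's mean, was -1.68 in AC replicate 2 and 0.02 in CK replicate 2, the libraries with the most seed reserve transcripts of their groups.

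**Figure D3:**
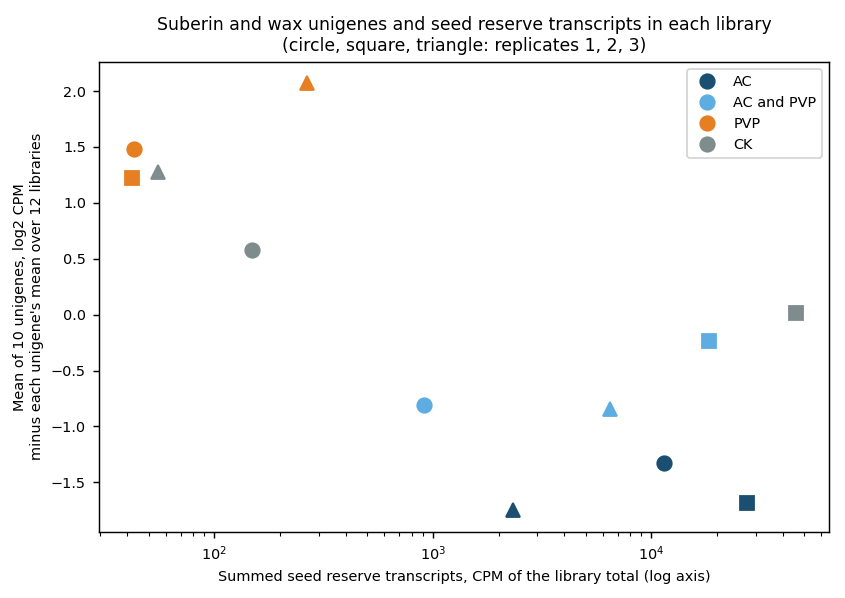
Mean over the 10 unigenes of log2 CPM, each minus its own mean over 12 libraries, against the summed CPM of 14 seed reserve unigenes on a log axis, with 1 point per library, coloured by group (AC, AC and PVP, PVP, CK) and shaped by replicate. CK replicate 2 lies at 45987 CPM and 0.02, apart from the other CK libraries and above all AC libraries. The sums are CPM of the library total.

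Light harvesting and Rubisco unigenes of leaf mesophyll (8) summed to 108 to 191 CPM in AC, 255 to 420 CPM in AC and PVP, 195 to 443 CPM in PVP and 39.8 to 195 CPM in CK, and RBS1 was at 0 in AC and PVP replicate 2, in all PVP libraries and in CK replicates 2 and 3. The sums of this paragraph, too, are CPM of the library total. The 4 unigenes taken as root endodermis markers were MYB36 and the CASP-like matches CSPL5, CSPLA and CSPLB, whose cell type was not measured here. They summed to 17.4 to 20.6 CPM in AC, 10.5 to 33.1 CPM in AC and PVP, 14.7 to 35.9 CPM in PVP and 21.2 to 33.3 CPM in CK, with none at 0. This sum hides members that went opposite ways. CSPL5 averaged 0.795 CPM in AC and 22.4 CPM in PVP (TMM-scaled), and MYB36 2.74 and 4.02 CPM. CSPLA averaged 7.15 CPM in AC and 0.520 CPM in PVP, and CSPLB 8.91 and 2.84 CPM. Of shoot epidermis, PDF1 was at 0 in CK replicates 1 and 3 and MY106 in CK replicate 2 and PVP replicate 2. The pair summed to 1.42 to 3.08 CPM in AC, 1.99 to 2.49 CPM in AC and PVP, 0.598 to 2.03 CPM in PVP and at most 0.141 CPM in CK. The 3 xylem unigenes summed to 10.4 to 21.6 CPM in AC, 2.10 to 13.9 CPM in AC and PVP, 2.95 to 8.99 CPM in PVP and 2.86 to 4.96 CPM in CK. Among them LAC4 averaged 0.745 CPM in AC and 1.80 CPM in PVP (TMM-scaled). FLA12 went the other way, with 11.6 and 3.71 CPM, as did CESA7, with 1.70 and 0.614 CPM. The root meristem match PLET2, as TMM-scaled CPM, was at 0.361 to 0.781 CPM in AC, 0.0475 to 0.403 CPM in AC and PVP, 0.0531 to 1.19 CPM in PVP and 1.79 to 7.20 CPM in CK. The part of tissue makeup in the levels of the suberin and wax unigenes was not tested.

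Trinity placed GPAT1, KCS1 and FACR3 in components that held unigenes outside the list. Beside GPAT1, the unnamed TRINITY_DN224_c0_g1 was level over all groups, with means of 26.3 CPM in AC, 25.3 CPM in AC and PVP, 29.4 CPM in PVP and 24.8 CPM in CK, and log2 fold changes between -0.22 (AC and PVP vs. PVP) and a high of 0.25 (PVP vs. CK), although the ranges of both these comparisons did not overlap. The unnamed TRINITY_DN10080_c0_g2 beside KCS1 ran from 2.05 to 6.17 CPM with overlap in every comparison. TRINITY_DN1082_c0_g1, the second match to FACR3, had another order of levels than the listed one, with 2.403, 2.92 and 3.61 CPM in AC, 3.99, 3.69 and 5.95 CPM in AC and PVP, 4.15, 1.91 and 1.13 CPM in PVP, and 0.834, 0.494 and 1.05 CPM in CK. Its log2 fold change in AC and PVP vs. CK was 2.496 (SE 0.45, adjusted p = 0.0223, edgeR), so this unigene rose where the listed FACR3 was at -1.28, while both were above 0 in PVP vs. CK and below 0 in AC vs. AC and PVP. Reads of near-identical copies can be divided between such unigenes, and TRINITY_DN1082_c0_g2 and TRINITY_DN1082_c0_g4 held only 27 and 13 counts over all libraries. TRINITY_DN224_c0_g2, with 114 counts, ran from 0.0521 to 0.367 CPM in AC, 0.631 to 0.807 CPM in AC and PVP, 0.423 to 0.637 CPM in PVP and 0.238 to 0.987 CPM in CK, and was called in none of the 6 comparisons (edgeR).

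**Figure D4:**
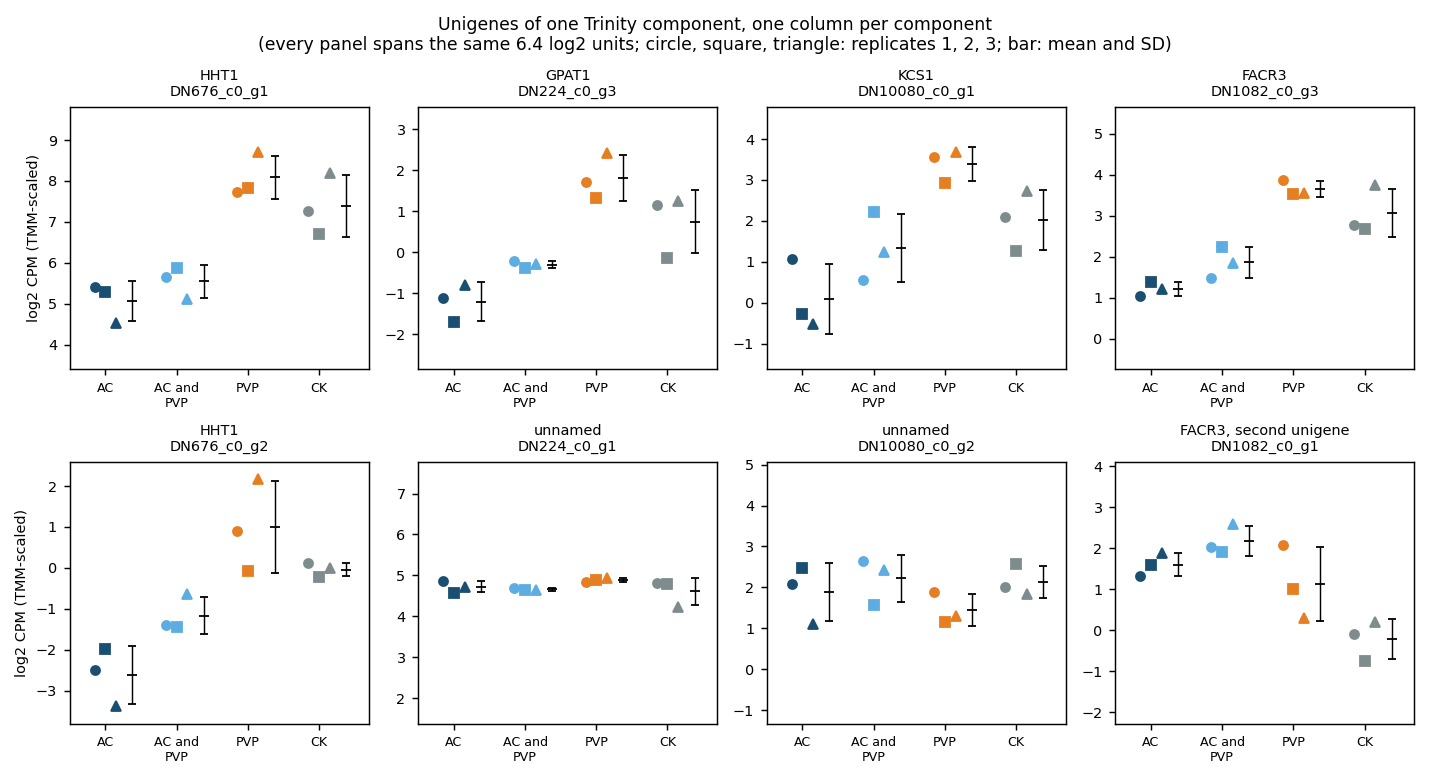
The log2 CPM (TMM-scaled) of unigenes from 4 Trinity components, 1 component per column, in AC, AC and PVP, PVP and CK, with points for libraries (shape for replicate), bars for mean and SD, and the same vertical span in all panels. Both HHT1 unigenes have the order of the list, the unnamed neighbour of GPAT1 is level, and the second FACR3 unigene is lowest in CK.

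Other acyl-lipid enzymes of the study's tables did not share 1 direction. Of these 9 unigenes, 1 was called higher and 0 lower in AC vs. CK (105 of the 58247 tested unigenes, 0.18%, were called higher), none in the comparisons AC vs. PVP, then AC and PVP vs. PVP, then AC vs. AC and PVP, and PVP vs. CK (at an unadjusted p under 0.05, 7, 8, 1 and 4 in that order, where 8.6%, 9.42%, 6.29% and 11.2% of all tested unigenes passed, and in PVP vs. CK 1 by DESeq2 on all libraries). The calls in AC and PVP vs. CK were 3 higher and 0 lower (0.464% of all called higher and 0.371% lower). Without CK replicate 2, 5 were called, namely the same 3 higher, with FACR2 and LACS2 lower in AC and PVP. GPAT5, the suberin acyltransferase of root and seed coat, had 1.38, 0.364 and 0.783 CPM in AC, 0.902, 1.68 and 2.16 CPM in AC and PVP, 3.77, 3.45 and 8.50 CPM in PVP, and 4.67, 1.57 and 4.78 CPM in CK, which is the order of the listed unigenes. FACR2, LACS2 (a cutin acyl-CoA synthetase) and GPAT8 (a cutin acyltransferase) also had their highest means in PVP, at 29.6, 12.7 and 11.5 CPM. DCR, an acyltransferase needed for cutin, had means of 15.5 CPM in AC, 17.7 CPM in AC and PVP, 7.93 CPM in PVP and 3.94 CPM in CK, and rose in AC and PVP vs. CK (log2 fold change 2.16, SE 0.40, adjusted p = 0.0227, edgeR). HTH, an oxidoreductase of cutin synthesis, rose as well (3.00, SE 0.49, adjusted p = 0.0145, edgeR), with means of 5.45 CPM in AC and PVP and 0.672 CPM in CK. With each library left out in turn, HTH lost its call without AC and PVP replicate 3 (highest adjusted p = 0.0610, edgeR), DCR also without CK replicate 3 (0.101), and the second FACR3 unigene also without AC and PVP replicate 1 and CK replicates 1 and 3 (0.0948). In C96AF, a wax alkane hydroxylase, and DCR, all 6 libraries with AC lay above all 6 without (0.282% of all tested unigenes did). These lists came from the same tables as the 10 unigenes, so their directions are not independent evidence.

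MYB93, whose apple homologue is known to switch on suberin genes, had 0.122, 0.104 and 0 CPM in AC, 0.332, 0.0671 and 0.451 CPM in AC and PVP, 1.52, 1.17 and 1.88 CPM in PVP, and 1.43, 0.538 and 2.60 CPM in CK. All libraries with AC were below all without. In AC and PVP vs. CK its log2 fold change was -2.44 (SE 0.68, adjusted p = 0.101, edgeR) and in PVP vs. CK it was -0.01. MYB36, which directs Casparian strip formation, fell in AC and PVP vs. CK (log2 fold change -1.96, SE 0.36, adjusted p = 0.0234, edgeR), with 1.80, 3.22 and 1.89 CPM in AC and PVP and 7.02, 11.8 and 8.28 CPM in CK. MY106, a cuticle regulator of shoot epidermis, rose in that comparison (adjusted p = 0.0346, edgeR), and no fold is given because it held 35 counts in AC and PVP and 3 in CK. MYB93, not called with all libraries, was called with 1 of the 12 libraries left out in turn (CK replicate 2) and in 3 of 9 other settings. MYB36 was not called without AC and PVP replicate 1 or 3 or CK replicate 3, and MY106 was called with 5 of the 12 libraries left out in turn. These regulators were also drawn from the study's tables on these libraries, so their directions are not independent evidence.

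The 9 unigenes that make activated ferulate and its precursors, the phenolic partner of HHT1, had 1 call above CK in PVP and 1 below CK in AC and PVP. In PVP vs. CK, 1 was called higher, the caffeoyl shikimate esterase CSE TRINITY_DN9013_c0_g1 (log2 fold change 1.85, SE 0.35, adjusted p = 0.0316, edgeR), where 0.529% of all tested unigenes were, and 8 of 9 were above 0. All 9 had an unadjusted p under 0.05 in that comparison (11.2% of all), and 7 had all PVP libraries above all CK libraries (5.99% of all). In AC and PVP vs. CK, 1 was called lower, the other CSE match TRINITY_DN17083_c0_g1 (-2.30, SE 0.41, adjusted p = 0.0201, edgeR, with 0.371% of all called lower), and 1 of 9 had an unadjusted p under 0.05 (12.8% of all). The call of TRINITY_DN9013_c0_g1 was lost without any PVP library or without CK replicate 1 or 3, and that of TRINITY_DN17083_c0_g1 without any AC and PVP library or without CK replicate 3. In AC vs. PVP 4 of 9 were called lower in AC (both phenylalanine ammonia-lyases PALY, the acyltransferase HST and the methyltransferase CAMT, with 0.201% of all called lower), and in AC vs. CK none was, with 5 at an unadjusted p under 0.05 (9.33% of all). This list, too, was drawn from the study's tables on these libraries, and all 9 had their AC libraries below their PVP libraries. High levels in PVP push PVP vs. CK above 0. The calls, p-values and counts of this list are therefore a description and no independent test. The median log2 fold change in AC and PVP vs. CK was -0.26 for these 9, -1.30 for the 10 suberin and wax unigenes and -0.12 over all unigenes. The 10 were all chosen for lower levels in AC and PVP than in PVP, so nothing is read from the gap between the lists.

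**Figure D5:**
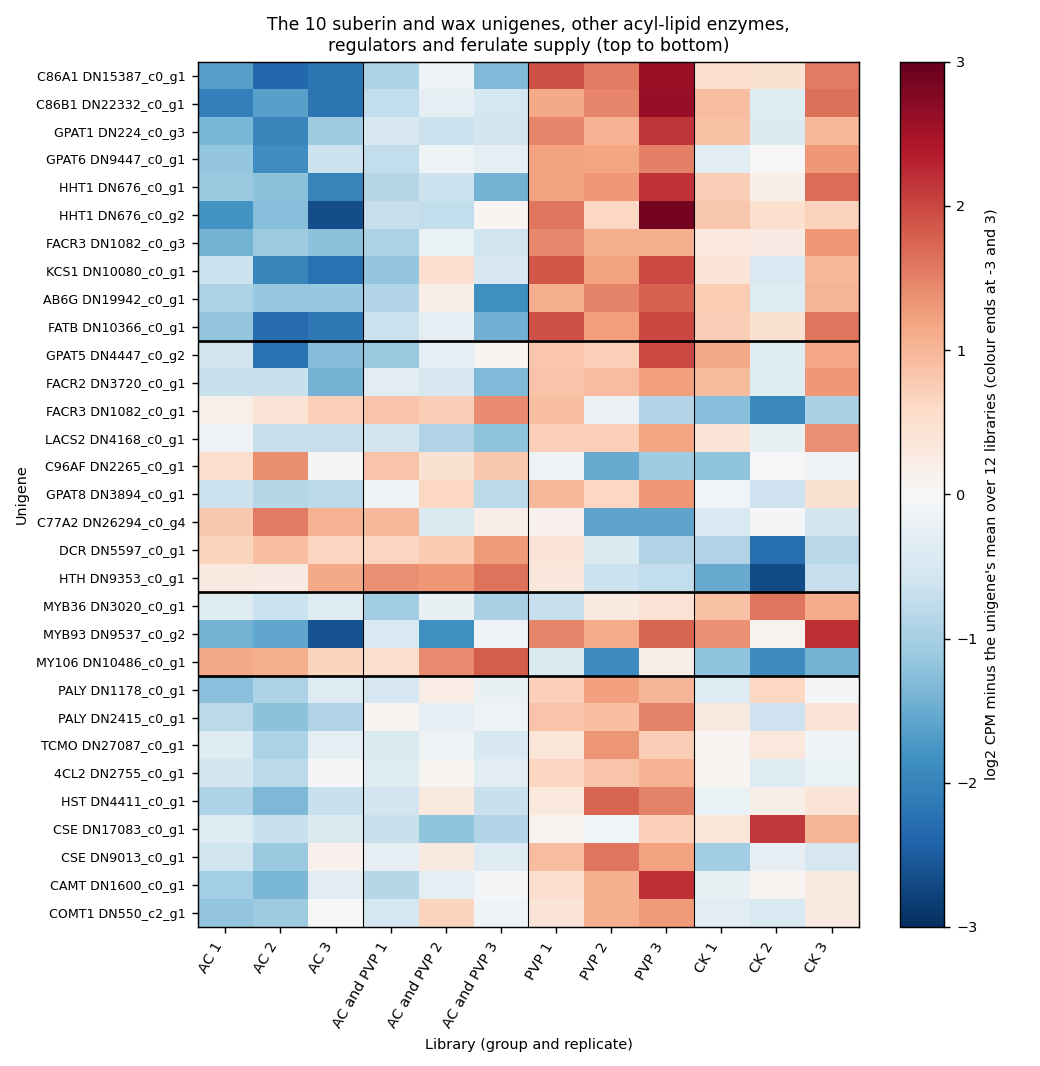
Log2 CPM of each unigene minus its own mean over 12 libraries (red above, blue below), with libraries as columns in the order AC, AC and PVP, PVP, CK and the 10 suberin and wax unigenes, 9 other acyl-lipid enzymes, 3 regulators and 9 ferulate enzymes as rows from top to bottom. The top 10 rows are blue in all AC columns and red in all PVP columns, while the other acyl-lipid enzymes hold rows of both kinds.

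Over 14104 other unigenes with a mean log2 CPM over 0, the 5 whose levels were most like the mean of the list were GDL31 TRINITY_DN775_c0_g1 (r = 0.99), GDL38 TRINITY_DN3379_c0_g1 (r = 0.98), C7A15 TRINITY_DN31378_c0_g1 (r = 0.97), CSPL5 TRINITY_DN2359_c0_g1 (r = 0.97) and ERDL6 TRINITY_DN91_c0_g1 (r = 0.97), each over 12 libraries that share the 4 groups. GDL31 and GDL38 are GDSL esterases, CSPL5 is a CASP-like membrane protein and ERDL6 a sugar transporter. GDL31 averaged 1.21 CPM in AC, 3.02 CPM in AC and PVP, 21.8 CPM in PVP and 8.47 CPM in CK, the order of the list. The fourth of them, CSPL5, had 1.26, 0.521 and 0.602 CPM in AC, 1.42, 2.48 and 3.34 CPM in AC and PVP, 16.7, 12.4 and 37.9 CPM in PVP, and 5.48, 2.92 and 9.36 CPM in CK, and its log2 fold change was 1.91 in PVP vs. CK (SE 0.49, adjusted p = 0.0862, edgeR). CSPL5 was picked on these libraries by likeness to a mean that was highest in PVP. This difference is therefore a description and no test.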

How the data were processed

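The authors trimmed reads with TrimGalore 0.6.4, assembled all libraries with Trinity 2.4.0, aligned reads with Bowtie 1.2.3 and deposited RSEM 1.3.3 estimated counts per unigene, per the labels and the study's methods. The estimated counts were rounded to whole numbers before testing. Of 130956 unigenes, 58247 had counts in 3 or more of the 12 libraries and were tested. The 4 groups were fitted together by the quasi-likelihood test of edgeR 4.0.16 (limma 3.58.1, R 4.3.3) after TMM scaling, and p-values were adjusted after Benjamini-Hochberg over the whole table. A call needed an adjusted p under 0.05 together with more than 1 log2 unit of change, and SE was taken as the size of the log2 fold change over the root of its F value. Each library is a pool, so p-values measure the spread between pools. Tests of a comparison were run on the deposited libraries of 1 assembly, whose unigene counts may divide reads between near-identical copies.

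The 10 unigenes, the gene lists, the comparisons and the alternatives were chosen with earlier results of these data known. Named were the 10 unigenes, those of the same Trinity components, the members of 3 lists (other acyl-lipid enzymes, regulators, ferulate supply) and the 5 unigenes most like the mean of the 10 by Pearson's r among those with a mean log2 CPM over 0. Gene symbols came from the study's supplementary tables, whose fold changes and p-values were not used. Alternatives were RLE factors, unscaled library sizes, the older dispersion estimate, a filterByExpr filter or none, a replicate block, edgeR on 2 groups, DESeq2 1.42.0 on 2 groups and on all libraries, and each library left out in turn. The contrasts of PVP at both carbon levels were added after results were seen. The tests were checked on simulated data. Sequences of the unigenes were not used here.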

Additional observations from a re-analysis of the deposited data

How the results depend on the processing

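Over 21 alternatives, the sign of all 10 log2 fold changes was kept in 208 of 210 values of PVP vs. CK, in 209 of 210 of AC vs. AC and PVP and in 210 of 210 of each other comparison. The exceptions were HHT1 TRINITY_DN676_c0_g1 (-0.046) and FACR3 TRINITY_DN1082_c0_g3 (-0.10) in PVP vs. CK with library sizes only, and AB6G TRINITY_DN19942_c0_g1 in AC vs. AC and PVP, which ran from -0.85 to 0.18 with a library left out and was above 0 without AC and PVP replicate 2. Library sizes only moved the median of all unigenes to -0.76 (PVP vs. CK), -0.57 (AC vs. CK), -0.49 (AC and PVP vs. CK), 0.18 (AC and PVP vs. PVP) and 0.16 (AC vs. PVP). The number of the 10 that was called moved more. In AC vs. CK it was 5, against 10 with no filter, 0 with edgeR on 2 groups and 10 with DESeq2 on all libraries. In AC and PVP vs. PVP it was 2, against 0 with library sizes only, 0 with the filterByExpr filter, 10 with no filter, 5 with the older dispersion estimate, 0 with edgeR on 2 groups, 10 with DESeq2 on 2 groups and 8 with DESeq2 on all libraries. In AC and PVP vs. CK it was 1, against 0 with RLE factors, 4 with library sizes only, 4 with no filter, 0 with edgeR on 2 groups and 4 with DESeq2 on all libraries. The causes were not tested.

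With each library left out in turn, the number called ran from 0 to 4 in AC and PVP vs. CK, 0 to 7 in AC vs. CK, 0 to 6 in AC and PVP vs. PVP, 6 to 10 in AC vs. PVP, and 0 to 0 in PVP vs. CK and AC vs. AC and PVP, and the number split by AC from 6 to 9. No pairing by replicate number was seen in the deviations of same-numbered libraries, which correlated by -0.19 to 0.10 and by over 0.1 in 0 of 18 pairs. With 3 libraries per group this measure cannot exclude pairing. With the replicate block, 3 were called in AC and PVP vs. CK, 8 in AC vs. CK and 10 in AC and PVP vs. PVP. Depth limits HHT1 TRINITY_DN676_c0_g2 most, with 5 counts in AC, and C86A1, GPAT1 and FATB held 21 or 22 counts there.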
